A study of Mus musculus with 6 samples.

Results

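The 10 genes described here encode enzymes that turn cholesterol into conjugated bile acids and the pair of nuclear receptors that hold this synthesis in check. They were taken by name, from a list chosen with earlier results of these data known. The rows are those of the deposited table whose Ensembl identifier maps to Cyp7a1, Cyp8b1, Cyp27a1, Cyp7b1, Hsd3b7, Akr1d1, Baat, Slc27a5, Nr1h4 and Nr0b2. All 10 were found among the 52550 genes listed, 9 had a value above 0, and these 9 were tested, since each averaged 1 TPM or more (transcripts per 1000000) over the libraries. RNA came from green fluorescent cells sorted from livers of Sox9-GFP mouse embryos of the CD-1 strain, with 3 libraries (A, B and C) for E16.5 and 3 for E18.5, called embryonic days 16 and 18 in the sample labels. All 6 libraries share the reporter, which marks any cell with Sox9 activity and so need not mark only bile duct cells, and each was made from a pool of 15 livers after magnetic removal of blood lineages. The study purified these cells to learn whether the machinery of fluid secretion was present when the bile duct lumen starts to form; no treatment was given, and stage is the only comparison.

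Bile acids are made from cholesterol in hepatocytes, and biliary cells transport and modify bile rather than make it. In the classical pathway, Cyp7a1 adds a hydroxyl group to the ring of cholesterol; in the alternative pathway, Cyp27a1 first oxidizes the side chain and Cyp7b1 hydroxylates the ring of the resulting oxysterol. Bile acids bind the receptor FXR, encoded by Nr1h4, which raises Nr0b2, the gene of the small heterodimer partner SHP, and SHP in turn lowers Cyp7a1 and Cyp8b1. Hepatoblasts of the fetal liver give rise to both hepatocytes and cholangiocytes.

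The sorted cells carried the defining markers of biliary cells, and also much hepatoblast RNA. Sox9, Krt19, Epcam and Spp1 were above 20 TPM in every library, and a list of 12 cholangiocyte markers summed to between 764 and 2522 TPM at E16.5, then between 8122 and 13953 TPM at E18.5, with 9 of 12 members called higher (5 after the median-of-ratios scaling described below). A list of 12 hepatoblast markers with Alb, the albumin gene, at its head summed to between 179198 and 228355 TPM at E16.5, then between 42263 and 103363 TPM at E18.5, with 6 of 12 called lower. E16.5 C had the lowest cholangiocyte sum and the highest hepatoblast sum of its stage, and E18.5 B had the lowest hepatoblast sum of all. Within its stage E18.5 B also had the most blood RNA, with erythroid, megakaryocyte and leukocyte sums of 501, 757 and 162 TPM, where the next highest library of the stage had 215, 222 and 101 TPM. Of the other cell type lists, 8 of 8 megakaryocyte genes were called lower (sums of 3293 to 9515 TPM at E16.5, then 95.4 to 757 TPM at E18.5), as were 2 of 6 pancreatic acinar genes (0 after that scaling) and 1 of 8 erythroid genes, while 2 of 8 mesenchymal genes were called higher (1 after that scaling). The acinar sum was 2454 TPM in E16.5 A, against 226 and 80.6 TPM in E16.5 B and C. Of 7 leukocyte genes 1 was called higher, or 1 lower after that scaling, and the endothelial sums of 106 to 173 TPM at E16.5 overlapped those of 110 to 218 TPM at E18.5. All these counts stand beside 26% called higher and 5.22% lower among all genes tested, or 6.81% and 10.4% after that scaling. The 2 of 8 mesenchymal genes are near the share called higher. The part of these mixtures in the results below was not tested, and fewer cells of a type cannot be told apart from less RNA per cell.

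Between E16.5 and E18.5, the messages of SHP and of a conjugation enzyme moved in opposite directions. Those of the other enzymes tested and of FXR did not pass the test. Nr0b2 rose and Slc27a5 fell, and 7 of the 9 genes tested were not called (limma on log2(TPM + 1), Benjamini-Hochberg adjusted p under 0.05 across the 22452 genes). These p-values measure the spread between the pools sequenced, 3 for each stage. This count of 1 higher and 1 lower is to be read against all genes tested, of which 26% were called higher and 5.22% lower at E18.5. The median log2 fold change was -0.10 over the 9 genes and 0.42 over all genes. After median-of-ratios scaling, which sets the median over all genes to 0.02, the median of the 9 genes was -0.53 and 0 of 9 were called by limma, against 6.81% of all genes called higher and 10.4% called lower; 3 of 9 (Nr0b2, Slc27a5 and Baat) then had 95% intervals that did not reach 0, which is an unadjusted p under 0.05, and voom on recovered reads called 1 higher and 1 lower. The 2 stages did not overlap for Nr0b2, Slc27a5 and Baat, which is 3 of 9 genes, beside 53.3% of all genes tested.

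**Figure D1:**
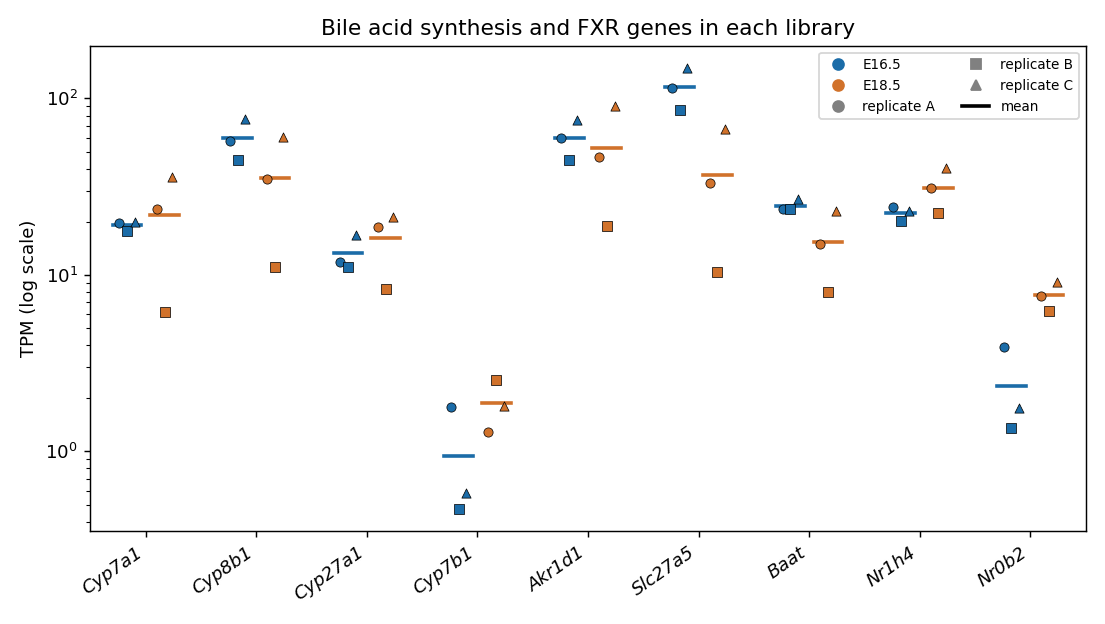
TPM of the 9 measured genes on a log axis, with 1 point per library (E16.5 in blue, E18.5 in orange, shapes for replicates A, B and C) and a bar for the mean of 3 libraries. The E18.5 points of Slc27a5 lie below all of its E16.5 points and those of Nr0b2 above, while E18.5 B (square) is the lowest E18.5 point of every gene except Cyp7b1.

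Messages of the first enzymes of both pathways were detected at both stages. Cyp7a1, the rate-limiting enzyme of the classical pathway, lies on chromosome 4 of GRCm38 (ENSMUSG00000028240.2, 6265612 to 6275633, reverse strand, 4174 bp of exon sequence). It had 19.6, 17.8 and 19.9 TPM in libraries A, B and C of E16.5 and 23.7, 6.19 and 35.7 TPM at E18.5. At E16.5 the libraries were within 1.12-fold of each other, whereas at E18.5 they spanned 5.77-fold and enclosed the whole E16.5 range. The mean was 19.1 ± 1.12 TPM (SD, n = 3) at E16.5, against 21.9 ± 14.8 TPM later, and the log2 fold change was -0.10 with a 95% interval of -1.39 to 1.18 (limma adjusted p = 0.891). Without E18.5 B it was 0.58 (limma adjusted p = 0.0938), so the direction of Cyp7a1 rests on that library. The lowest value, that of E18.5 B, rests on 132 reads, with an exact Poisson 95% interval of 5.18 to 7.34 TPM.

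Cyp8b1 adds the hydroxyl group that sets the share of cholic acid. This gene of a single exon (ENSMUSG00000050445.4, chromosome 9, 121914356 to 121916305) was the more abundant of the pair in every library. Its values were 57.6, 44.8 and 76.4 TPM at E16.5, then 35.1, 11.0 and 60.4 TPM at E18.5. The ranges overlapped in E18.5 C alone, which lay above 2 of the 3 E16.5 libraries. Its log2 fold change of -0.99 (95% interval -2.29 to 0.32, limma adjusted p = 0.198) did not pass the test. It was -0.33 without E18.5 B and -1.51 without E18.5 C.

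In the alternative pathway, Cyp27a1 had 11.8, 11.1 and 16.8 TPM at E16.5, then 18.7, 8.37 and 21.4 TPM at E18.5 (ENSMUSG00000026170.6, chromosome 1, 74713574 to 74737892). E18.5 B was the lowest of all 6 libraries and E18.5 A and C the highest, so the stages overlapped. The log2 fold change was 0.20 (95% interval -0.62 to 1.01, limma adjusted p = 0.678), and -0.23 with median-of-ratios scaling. It was 0.58 without E18.5 B and -0.04 without E18.5 C. Cyp7b1, the oxysterol hydroxylase, was the least abundant of the measured genes at 1.78, 0.474 and 0.579 TPM at E16.5, then 1.28, 2.53 and 1.82 TPM at E18.5 (ENSMUSG00000039519.6, chromosome 3, 18071950 to 18243338). These values rest on 8 to 33 reads, and the exact Poisson 95% interval of the lowest, 0.204 to 0.933 TPM, lies above the 0.178 TPM of 3 reads in that library. E16.5 A lay inside the E18.5 range. Cyp7b1 was the exception to the order of the E18.5 libraries, with its highest value in library B. Its log2 fold change was 0.60 (95% interval -0.25 to 1.46, limma adjusted p = 0.223). The pseudocount of 1 is of the size of its level, and with a pseudocount of 0.1 the value was 1.08.

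Hsd3b7, the dehydrogenase that acts on the ring after hydroxylation, was listed at 0 in all 6 libraries (ENSMUSG00000042289.11, chromosome 7, 127800604 to 127803802, forward strand). This zero cannot be read as a level. Of its 2769 bp of exon sequence, 99.2% is shared with exons of other annotated genes: 62.0% on the same strand (with Gm49388) and 62.4% on the opposite strand (with 9430064I24Rik). Gm49388, whose exon sequence is shared in full, was also listed at 0 in all 6 libraries, and 9430064I24Rik had 0.0923 to 0.440 TPM. Genes with such sharing were mostly listed at 0. Of 137 protein-coding genes with at least 95% of their exon sequence shared on the same strand, 89.8% were at 0 in every library, against 4.22% of the 18732 genes with less sharing on either strand. Of the 51 genes shared to that extent on either strand but to under 70% on the same strand, like Hsd3b7, 42 were at 0 (82.4%). Of the 45 genes shared to that extent on the opposite strand, with 0 shared on the same strand, 37 were at 0 (82.2%). The strand setting used in counting is not given in the sources used here, and its part in these zeros was not tested.

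Akr1d1, the reductase that gives bile acids their bent ring, shares no exon sequence with another gene (ENSMUSG00000038641.12, chromosome 6, 37530173 to 37568815). Its values were 59.5, 44.6 and 75.7 TPM at E16.5, then 46.7, 19.0 and 90.6 TPM at E18.5. Both the lowest and the highest of the 6 values were E18.5 libraries. The log2 fold change was -0.42 (95% interval -1.64 to 0.79, limma adjusted p = 0.538), and 0.15 without E18.5 B.

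Conjugation takes 2 steps, activation and transfer, and the mean of both genes was lower at E18.5. Slc27a5 encodes the bile acid CoA ligase, which activates bile acids for conjugation (ENSMUSG00000030382.15, chromosome 7, 12988346 to 12998192). It was the most abundant of the genes at E16.5, above 96.3% of the protein-coding genes, with 115, 85.7 and 149 TPM. At E18.5 it had 33.3, 10.4 and 67.5 TPM, and every one of these lay below the lowest E16.5 library. The mean fell from 116 ± 31.6 TPM (SD, n = 3) to 37.0 ± 28.7 TPM. Its log2 fold change was -1.94 (standard error 0.60, 95% interval -3.35 to -0.53, limma adjusted p = 0.0470; exact two-sided permutation p = 0.1, the smallest that 3 libraries against 3 can give). The call was close to the threshold and was lost in 10 of 14 alternatives, among them median-of-ratios scaling (-2.38, limma adjusted p = 0.0595). It was also lost without E16.5 A, B or C (-1.93, -2.14 and -1.75) and without E18.5 A (-2.04) or E18.5 B (-1.24). The direction was kept in all 14, but with stages that do not overlap most of these could not have turned it. Median-of-ratios scaling, quantile normalization and voom could have, and gave -2.38, -2.20 and -2.17.

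Baat, the enzyme that joins the activated bile acid to taurine, had 23.6, 23.6 and 26.9 TPM at E16.5, then 14.99, 7.96 and 23.1 TPM at E18.5 (ENSMUSG00000039653.9, chromosome 4, 49489422 to 49506557). The highest E18.5 library lay just below the lowest at E16.5. Its log2 fold change of -0.76 (standard error 0.34, 95% interval -1.56 to 0.03) did not pass the test (limma adjusted p = 0.117). Without E18.5 C it did, at -1.10 (limma adjusted p = 0.0362), and without E18.5 B the value was -0.39 (limma adjusted p = 0.220). With median-of-ratios scaling the value was -1.19 (95% interval -2.14 to -0.24, limma adjusted p = 0.0852).

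Of the receptor pair, the SHP gene passed the test and the FXR gene did not. Nr1h4, the bile acid receptor, had 24.2, 20.1 and 23.0 TPM at E16.5, then 31.1, 22.3 and 40.1 TPM at E18.5 (ENSMUSG00000047638.15, chromosome 10, 89454234 to 89533585). E18.5 B lay within the E16.5 range and the other two E18.5 libraries above it. The log2 fold change was 0.42 (standard error 0.22, 95% interval -0.09 to 0.93, limma adjusted p = 0.163), equal to the median over all genes, and -0.01 (95% interval -0.64 to 0.61) with median-of-ratios scaling. It was 0.64 without E18.5 B and 0.23 without E18.5 C. Of the 9 genes it had the narrowest interval.

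Nr0b2, the SHP gene, had 3.91, 1.36 and 1.77 TPM at E16.5, then 7.62, 6.22 and 9.14 TPM at E18.5 (ENSMUSG00000037583.2, chromosome 4, 133553376 to 133556536). All 3 E18.5 libraries lay above all 3 of E16.5. These values rest on 12 to 38 reads at E16.5, against 36 to 59 later. The exact Poisson 95% interval of the highest E16.5 value, 2.77 to 5.37 TPM, overlaps that of the lowest E18.5 value, 4.36 to 8.61 TPM. The mean rose from 2.35 ± 1.37 TPM (SD, n = 3) to 7.66 ± 1.46 TPM, or by 1.43 on the log2 scale (standard error 0.33, 95% interval 0.67 to 2.198, limma adjusted p = 0.0212; exact permutation p = 0.1). The direction was kept in all 14 alternatives, over a range of 1.01 to 1.79, but most of these could not have turned it. The filters, the fit without trend and the replicate block leave the fold change as it was. Stages that do not overlap fix its sign with another pseudocount or a library left out. Median-of-ratios scaling, quantile normalization and voom could have turned it, and gave 1.08, 1.01 and 1.64. The call was lost with median-of-ratios scaling (1.08, 95% interval 0.29 to 1.86, limma adjusted p = 0.0682) and quantile normalization (1.01), and without E16.5 C (1.33), E18.5 A (1.43) or E18.5 C (1.31). Library B gave the lowest E18.5 value of Nr0b2, as it did for each other measured gene except Cyp7b1.

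**Figure D2:**
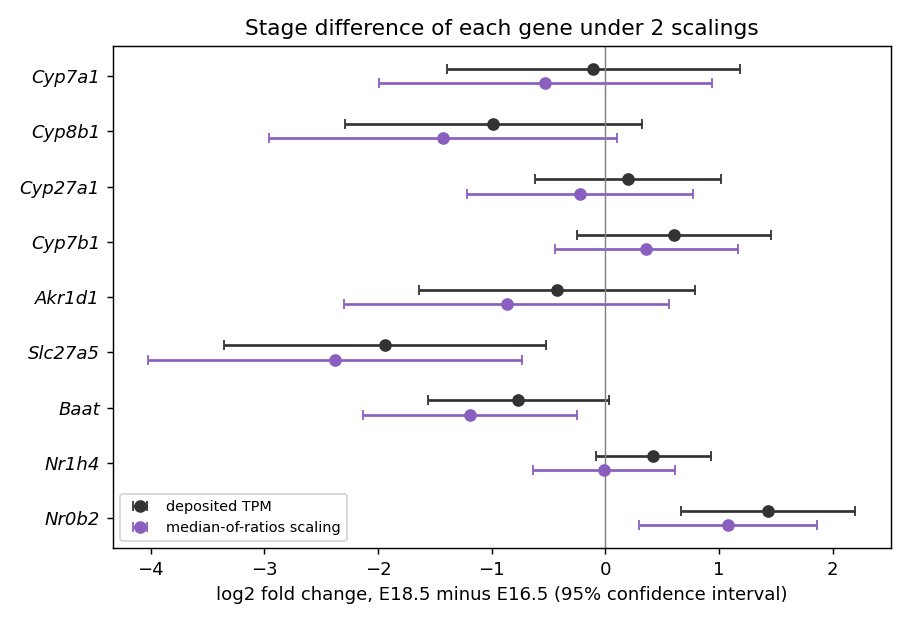
Log2 fold change of E18.5 minus E16.5 for each gene, with its 95% confidence interval from limma, for the deposited TPM (black) and after median-of-ratios scaling (purple). Slc27a5 lies below 0 and Nr0b2 above 0 with both scalings, while the 7 other intervals include 0 with the deposited TPM.

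The promoters of the receptor pair and of Cyp8b1 are shown because SHP acts between FXR and this enzyme, and of the 3 messages that of Nr0b2 alone passed the test. RefSeq promoters on GRCm38.p6, from 250 bases before to 50 bases after the gene start, were given for 6 of the 10 genes, and the RefSeq start of Nr1h4 lies inside the gene's GENCODE span rather than at its end. Capitals mark AGGTCA, the core letters that many nuclear receptors recognize, and TCAAGG, the start of the extended site TCAAGGTCA of LRH-1, on either strand (TGACCT and CCTTGA on the other). The pair of 6-letter motifs can overlap within the extended site, and TCAAGG was added after it had been seen in the Nr0b2 promoter.
Nr0b2 (chr4:133553126-133553425, forward strand): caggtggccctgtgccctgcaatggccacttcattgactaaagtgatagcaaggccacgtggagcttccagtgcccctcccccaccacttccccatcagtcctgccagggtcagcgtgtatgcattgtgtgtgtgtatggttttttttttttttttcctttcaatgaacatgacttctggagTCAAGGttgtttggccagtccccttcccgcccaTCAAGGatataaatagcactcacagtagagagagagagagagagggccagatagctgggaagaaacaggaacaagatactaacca
Nr1h4 (chr10:89506609-89506908, reverse strand): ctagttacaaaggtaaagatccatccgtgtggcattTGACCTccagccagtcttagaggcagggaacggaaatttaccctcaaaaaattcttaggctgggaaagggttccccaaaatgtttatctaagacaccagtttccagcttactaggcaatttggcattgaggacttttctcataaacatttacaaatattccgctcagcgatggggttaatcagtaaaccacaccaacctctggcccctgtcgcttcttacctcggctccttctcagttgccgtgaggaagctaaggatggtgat
Cyp8b1 (chr9:121916256-121916555, reverse strand): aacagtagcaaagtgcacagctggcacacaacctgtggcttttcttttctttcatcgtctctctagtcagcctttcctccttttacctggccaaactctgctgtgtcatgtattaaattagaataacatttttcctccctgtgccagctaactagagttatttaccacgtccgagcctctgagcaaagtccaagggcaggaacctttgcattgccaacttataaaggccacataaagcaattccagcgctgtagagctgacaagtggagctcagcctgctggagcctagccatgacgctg
The Nr0b2 promoter held TCAAGG at 2 places, from -68 to -63 and from -35 to -30 relative to the gene start, and the Nr1h4 promoter held AGGTCA once on the opposite strand, from -214 to -209. Cyp8b1 held neither, and of the promoters not printed Akr1d1 held both. Of all 32851 promoters of this length, 14.4% held TCAAGG, 16.3% held AGGTCA, and 0.423% held the extended site, which none of the 6 did. A TATA box, TATAAA, stood from -28 in Nr0b2 and from -31 in Cyp8b1, and was found in 13.6% of all promoters on either strand. These are matches of letters and not measured binding.

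Levels can be compared between genes because TPM is scaled by length. At E16.5 the order by mean was Slc27a5, Akr1d1 (59.9 TPM), Cyp8b1 (59.6 TPM), Baat (24.7 TPM), Nr1h4 (22.4 TPM), Cyp7a1, Cyp27a1 (13.2 TPM), Nr0b2 and Cyp7b1 (0.943 TPM). In this order the libraries overlapped between Akr1d1 and Cyp8b1, Baat and Nr1h4, and Nr0b2 and Cyp7b1, and were apart for the 5 other neighbours. At E18.5 the order was Akr1d1 (52.1 TPM), Slc27a5, Cyp8b1 (35.5 TPM), Nr1h4 (31.2 TPM), Cyp7a1, Cyp27a1 (16.2 TPM), Baat (15.3 TPM), Nr0b2 and Cyp7b1 (1.88 TPM), and only the last pair of neighbours was apart. At E18.5 the libraries ran in the order C, A, B for 8 of the 9 genes, with Cyp7b1 as the exception. The summed hepatoblast markers had the same order, at 103363, 86487 and 42263 TPM. At E16.5, library B was the lowest of its stage for 9 of 9 genes, where A and not B had the lowest hepatoblast sum (179198 TPM).

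Ratios of 2 genes within a library are free of the scaling between libraries. These pairs were picked with the values known and are given without a test. Per transcript of Cyp7a1 there were 2.94, 2.52 and 3.84 of Cyp8b1 at E16.5, then 1.48, 1.78 and 1.69 at E18.5, so the E18.5 libraries agree within 1.21-fold although each gene alone spanned more than 5-fold. Akr1d1 stood at 0.517, 0.520 and 0.509 of Slc27a5 at E16.5, then at 1.40, 1.84 and 1.34 at E18.5. This ratio was 2.94 times as high at E18.5, and between 2.66 and 3.11 times with any 1 library left out. Baat stood at 0.205, 0.275 and 0.181 of Slc27a5 at E16.5, then at 0.450, 0.769 and 0.342 at E18.5. Nr0b2 stood at 0.162, 0.0676 and 0.0770 of Nr1h4 at E16.5, then at 0.245, 0.278 and 0.228 at E18.5. For these 4 ratios the stages did not overlap, but the share over all pairs of genes was not computed. Of the single genes tested, 53.3% had stages that did not overlap. Slc27a5 or Nr0b2, each apart between stages by itself, is part of every one of these ratios except Cyp8b1 to Cyp7a1. Cyp7b1 relative to Cyp7a1 overlapped, at 0.0908, 0.0266 and 0.0291 against 0.0541, 0.409 and 0.0510, as did Cyp27a1 relative to Cyp7a1, at 0.604 to 0.843 against 0.600 to 1.35.

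**Figure D3:**
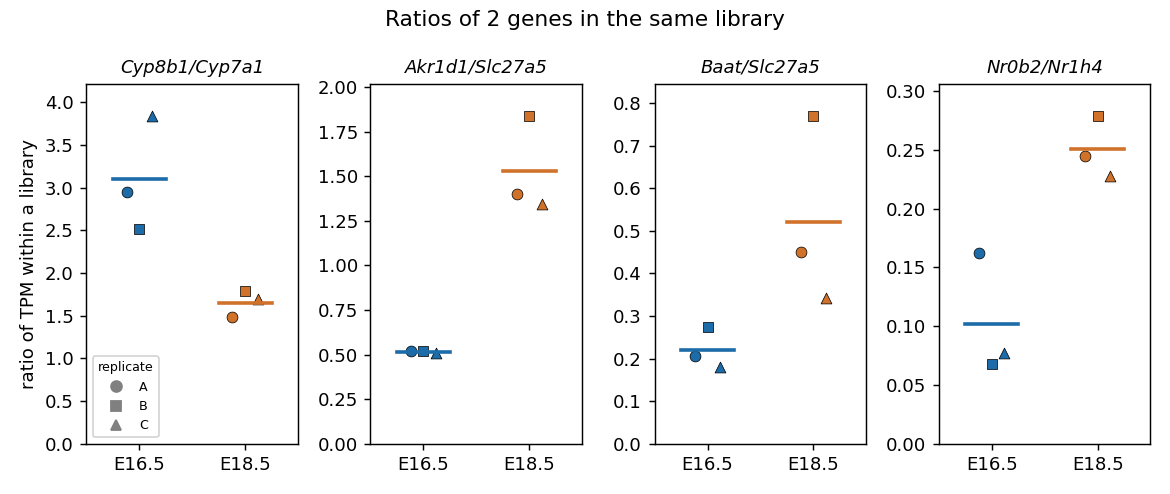
Ratio of the TPM of 2 genes in the same library at E16.5 (blue) and E18.5 (orange), with 1 point per library, shapes for the replicates and a bar for the mean; each vertical axis starts at 0. The 3 E16.5 points of Akr1d1/Slc27a5 lie between 0.509 and 0.520 and its E18.5 points between 1.34 and 1.84. The ratios of Cyp7b1 and of Cyp27a1 to Cyp7a1, whose stages overlapped, are not drawn.

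Levels were also set against Alb, the most abundant hepatoblast message, which shifts all genes of a library alike and so leaves their order as it was. The values are TPM per 1000 TPM of Alb in the same library, again with no test. Every E18.5 library was above every E16.5 library for 7 of 9 genes, the exceptions being Cyp8b1 and Slc27a5, but the same was true of 81% of all genes tested. Alb itself had 117854, 124817 and 148077 TPM at E16.5, then 60258, 30024 and 70151 TPM at E18.5. The median of the 20808 genes above 0 in every library was 3.58 times as high relative to Alb at E18.5. Nr0b2 was 9.24 times and Cyp7b1 5.92 times as high, above that median. The value of Cyp7b1 was 9.34 times without E16.5 A and 3.87 times without E18.5 B. Nr1h4 was 3.50 times as high, with 0.205, 0.161 and 0.156 at E16.5, then 0.516, 0.744 and 0.572 at E18.5. Below the median were Cyp27a1 (2.97 times), Cyp7a1 (2.35 times), Akr1d1 (1.90 times), Baat (1.47 times) and Cyp8b1 (1.27 times). Slc27a5, at 0.976, 0.687 and 1.005 at E16.5, then 0.552, 0.345 and 0.962 at E18.5, was 0.648 times as high, with stages that overlapped. Cyp27a1 was the steadiest against Alb at E18.5, with 0.310, 0.279 and 0.305 in the 3 libraries.

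**Figure D4:**
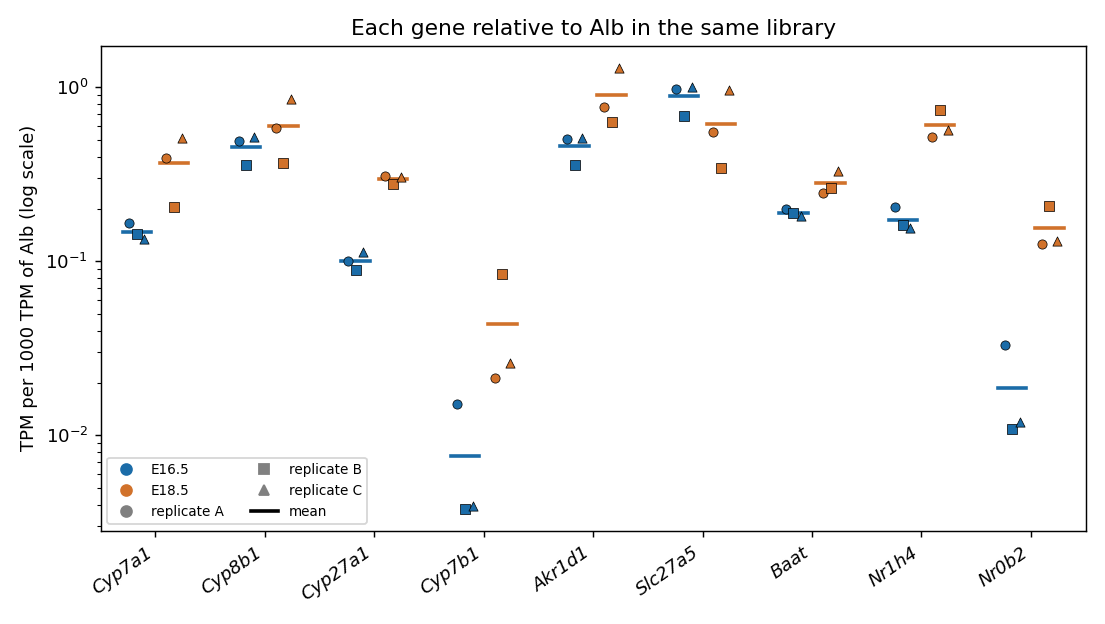
TPM of each gene per 1000 TPM of Alb in the same library on a log axis, with 1 point per library and a bar for the mean of 3 libraries. The E18.5 points lie above the E16.5 points for 7 of the 9 genes, and the points of Cyp8b1 and of Slc27a5 overlap between the stages.

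Other enzymes of bile acid synthesis also had calls in both directions. Of 12 listed, 11 were tested, 2 were called higher and 2 lower (median log2 fold change -0.26). After median-of-ratios scaling 1 was higher and 3 were lower. An even split is to be read against the 22452 genes, of which 26% were called higher and 5.22% lower (6.81% and 10.4% after that scaling). The lower pair of the list act on the side chain in the peroxisome. Acox2, the branched-chain acyl-CoA oxidase, had 169, 154 and 222 TPM at E16.5, then 64.7, 22.6 and 98.2 TPM at E18.5. It fell by 1.75 on the log2 scale (limma adjusted p = 0.0349). Amacr, the racemase that precedes it, fell by 1.04, from 51.4 ± 3.09 to 25.6 ± 9.09 TPM (SD, n = 3; limma adjusted p = 0.0251). Leaving out any E16.5 library, or E18.5 A, ended both calls, at -1.90 to -1.60 for Acox2 and -1.09 to -0.99 for Amacr. Slc27a2, the most abundant of the list, had 196 ± 29.3 and 98.6 ± 49.7 TPM, with stages apart but a limma adjusted p of 0.0688. It passed the threshold with the replicate block (limma adjusted p = 0.0426), with voom (0.0301) and without E18.5 C (0.0413), and its log2 fold change of -1.13 was -0.63 without E18.5 B. The higher pair were Cyp46a1, the cholesterol hydroxylase best known from neurons, and Abcd3, a transporter of the peroxisomal membrane. Cyp46a1 had 1.81, 1.52 and 0.954 TPM at E16.5, then 6.67, 6.43 and 5.77 TPM at E18.5. Its log2 fold change of 1.60 (limma adjusted p = 0.0104) was past the threshold in all 13 alternatives that could test it. Abcd3 rose by 0.46 (limma adjusted p = 0.0187), close to the median over all genes, and had 0.01 with median-of-ratios scaling and 0.20 with quantile normalization. Its call was also lost without E16.5 A (0.48) and without E18.5 A (0.46) or E18.5 B (0.44).

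Of 14 partners and regulators of FXR, 12 were tested, 3 were called higher and 1 lower (median log2 fold change 0.07). After median-of-ratios scaling 2 were higher and 2 lower. These counts stand beside 26% higher and 5.22% lower among the 22452 genes, or 6.81% and 10.4% after that scaling. So many higher calls do not set this list apart from other genes. The higher ones of the list were Prox1, Fgfr4 and Nr5a2. Prox1, a homeobox factor that can repress Cyp7a1, had 142, 161 and 118 TPM at E16.5, then 349, 370 and 266 TPM at E18.5, a log2 fold change of 1.22 (limma adjusted p = 0.00942) that was past the threshold in all 14 alternatives and was 0.77 after median-of-ratios scaling. Fgfr4, the receptor for the gut hormone that limits bile acid synthesis, rose by 0.98 (limma adjusted p = 0.0135). It had 0.53 after median-of-ratios scaling (limma adjusted p = 0.0271), and without E18.5 A it had 0.95 (limma adjusted p = 0.0532). Nr5a2, which encodes LRH-1, rose from 74.6 ± 6.64 to 128 ± 16.7 TPM (SD, n = 3) by 0.77 (limma adjusted p = 0.0132), with 0.32 after median-of-ratios scaling (limma adjusted p = 0.0664) and 0.73 without E18.5 A (limma adjusted p = 0.0539). Hnf4a, the hepatocyte factor that drives Cyp7a1 and Cyp8b1 and the most abundant of this list at E16.5, fell by 0.62, from 251 ± 4.42 to 165 ± 35.9 TPM (limma adjusted p = 0.0330). Its call was lost in all fits with a library left out other than the one without E18.5 C, at -0.67 to -0.44. Rxra, the partner with which FXR binds DNA, had 63.8 ± 2.96 and 85.4 ± 12.7 TPM with a limma adjusted p of 0.0572, and Nr1h3, the oxysterol receptor LXR alpha, had 26.01 ± 2.19 and 18.8 ± 3.86 TPM with a limma adjusted p of 0.0788 (0.0404 after median-of-ratios scaling).

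Of 8 genes on which FXR acts in liver or gut, 6 were tested and 1, Fabp6, was called higher (median log2 fold change -0.36). This single call stands beside 26% called higher among the 22452 genes. After median-of-ratios scaling Fabp6 had 0.84 (limma adjusted p = 0.148) and was not called. Fabp6, the ileal bile acid binding protein gene, had 0.974, 0.535 and 1.57 TPM at E16.5, then 4.88, 2.45 and 3.08 TPM at E18.5, from 2 to 16 reads a library. Its log2 fold change of 1.14 (limma adjusted p = 0.0397) did not survive the loss of any library: with each left out in turn it was 0.92 to 1.32, with limma adjusted p between 0.0526 and 0.124. It also missed the threshold with quantile normalization (0.75, limma adjusted p = 0.209) and with voom (limma adjusted p = 0.0854). Abcb11, the bile salt export pump and the most abundant of the list, had 81.3, 62.8 and 97.7 TPM at E16.5, then 54.7, 13.6 and 123 TPM at E18.5, with the order C, A, B at E18.5 again. Its log2 fold change was -0.79 (limma adjusted p = 0.399), and 0.05 without E18.5 B. Of the genes of the basolateral exporter, Slc51a had 2.56 ± 0.813 and 2.08 ± 1.38 TPM (SD, n = 3; limma adjusted p = 0.599). Slc51b had 14, 3 and 2 reads at E16.5, or 2.30, 0.543 and 0.354 TPM, and was listed at 0 at E18.5, where 3 reads would be 0.619 to 1.04 TPM. The values of E16.5 B and C lie below that limit, so only a level like that of E16.5 A would have been detectable at E18.5. Fgf15, the gut hormone that FXR induces, had 1 read in all 6 libraries together.

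Over 15352 genes averaging 5 TPM or more, likeness to each member was measured as the root mean square difference of mean-centred log2(TPM + 1) over the 6 libraries. Nearest to Slc27a5 were AI182371 (0.112) and Aldh8a1 (0.115), nearest to Cyp8b1 were Hpd (0.104) and Marc1 (0.106), and nearest to Baat was Grhpr (0.066). Fbp1 (0.070) stood nearest to Cyp27a1, C4b (0.092) to Cyp7a1 and Tcim (0.127) to Akr1d1. Next to Nr1h4 were Gm43362 (0.057) and Rhob (0.073), and next to Nr0b2 were Fendrr (0.113) and Ifitm1 (0.151). For Cyp7b1 the nearest were Ednra (0.111) and Gm44153 (0.117).

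**Figure D5:**
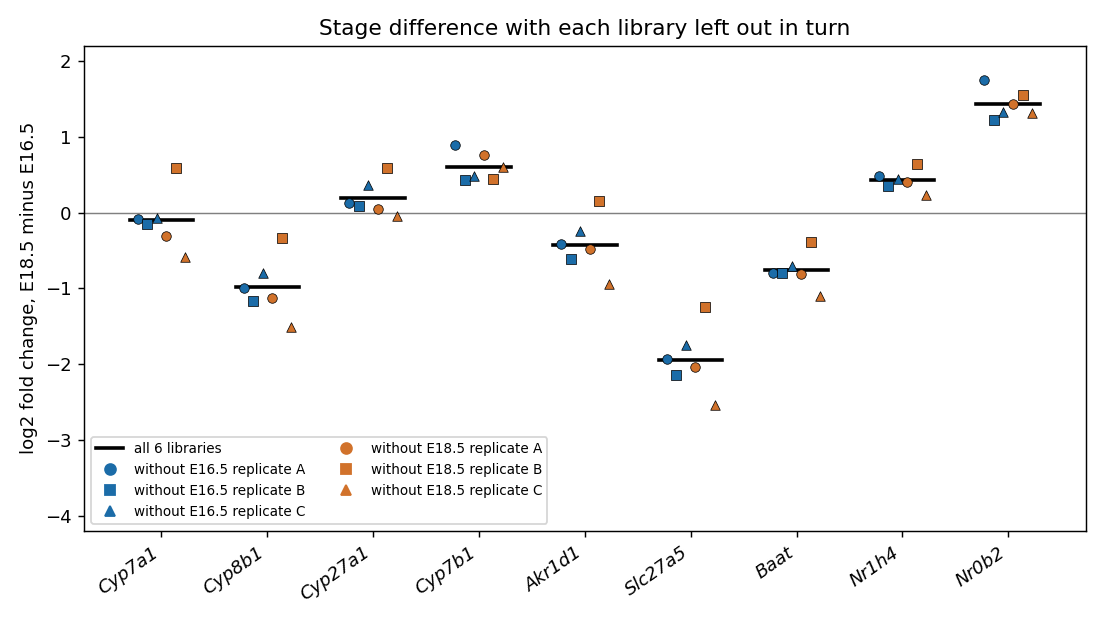
Log2 fold change of E18.5 minus E16.5 with all 6 libraries (black bar) and with each library left out in turn (points, coloured by the stage and shaped by the replicate left out). Leaving out E18.5 B turns Cyp7a1 (0.58) and Akr1d1 (0.15) above 0, and leaving out E18.5 C turns Cyp27a1 (-0.04) below 0. The other genes keep their sides of 0, which for Slc27a5, Nr0b2 and Baat was fixed by stages that do not overlap.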

How the data were processed

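RNA of sorted cells was sequenced from strand-keeping total RNA libraries, with 3 libraries at each stage, each from a pool of 15 livers. That these are separate pools is taken from the methods. The authors ran FastQC, Trimmomatic, HISAT2 on GRCm38 and HTSeq-count on GENCODE vM15 and turned counts into TPM; the strand setting is not given in the sources used here. The deposited values are these TPM, 1000000 per library. Mitochondrial genes, 37 in number, are listed at 0.

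Places, lengths and names come from GENCODE vM21 (52403 identifiers matched, 147 did not). Whole reads were rebuilt by multiplying TPM by exon length and dividing by what 1 read is worth: 100% of 180057 nonzero values of genes with the same identifier version were whole within 0.01, and libraries held 13093937 to 26206374 reads, so E18.5 values (22643868 at most) are the less precise. Intervals (exact, 95%) and the 3-read limit cover counting error only. Pairs of libraries of a stage differed with a chi-square per degree of freedom of 17.1 or more, so none was a copy.

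The stages were compared with limma 3.58.1 (R 4.3.3) on log2(TPM + 1), eBayes with a trend, no covariate, for genes averaging 1 TPM or more, which understates the fold changes of low genes. Ratios, exact tests and figures used Python 3.11.15. The limma step was also run on simulated libraries with known changes in some genes. These had the same set spread beyond counting error for every gene and no shift over all genes. They do not cover the median shift or the uneven libraries seen here. The members and lists were chosen with earlier results of these data known, so lists get counts and medians only. The genes named are the members, and of the other lists those past the threshold, apart between stages and at least 1 in log2 size, a few regulators fixed by name and the most abundant of each list; Fgfr4 and Abcd3 were added after their values were seen. Alternatives were a pseudocount of 0.1, no filter or a mean of 5 TPM, median-of-ratios or quantile scaling, eBayes without trend, a replicate block, voom on recovered reads, and each library left out.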

Additional observations from a re-analysis of the deposited data

How the results depend on the processing

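For the 9 genes tested, 125 alternative values were computed. Of these, 103 kept the direction and side of the threshold, 15 lost a call (10 of Slc27a5 and 5 of Nr0b2), 1 gained one (Baat) and 6 turned sign, none of them called. The filters, the fit without trend and the replicate block leave a fold change as it was, so they could alter only the call. For a gene not called in the main fit, keeping its side means that it stayed uncalled. Median-of-ratios scaling turned Cyp27a1 (-0.226), Nr1h4 (-0.0134) and Rxra (-0.0439), and quantile normalization turned Cyp27a1 (-0.193). With 1 library left out, Cyp7a1 ranged from -0.591 to 0.585 and Akr1d1 from -0.948 to 0.150 (both highest without E18.5 B), Cyp27a1 from -0.0448 (without E18.5 C) to 0.584, Abcb11 from -1.49 to 0.0511 (without E18.5 B) and Slc51a from -0.596 to 0.129 (without E18.5 A).

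Leaving out 1 library gave between 1472 (E18.5 A left out) and 5686 called genes, against 7000. The members called higher then numbered 0 to 1 and lower 0 to 2, and the other listed genes called higher 2 to 5 (6 with all libraries) and lower 0 to 8 (3 with all libraries). These fits hold fewer samples. Without a filter 4282 genes were called, with 0 members and 1 other listed gene lower. Median-of-ratios scaling left 3863 calls, of which 39.6% were higher, against 83.3%; it called 0 members in either direction, and 3 other genes higher and 5 lower. Quantile normalization left 3796 calls and 0 members in either direction. With a pseudocount of 0.1, 0 members were lower. Without the trend, 0 members and 1 other gene were lower, and voom called 5 other genes lower. The cause was not tested for any of these settings. Cyp7b1 could not be tested with the filter at 5 TPM.

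The letters A, B and C were not taken to pair the libraries, since same-letter deviations correlated at -0.0425, 0.0814 and 0.140. With the letter as a replicate block, 7314 genes were called, among them 1 member higher (Nr0b2, limma adjusted p = 0.0274), 1 lower (Slc27a5, limma adjusted p = 0.0224), and 6 other listed genes higher and 4 lower.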
